A study of Mus musculus with 4 samples.

Results

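The genes described are 10 transcriptional targets of the tumour suppressor p53: Cdkn1a, Mdm2, Ccng1, Phlda3, Eda2r, Bbc3, Pmaip1, Bax, Sesn2 and Zmat3. They were chosen by name as well-known members of its response, with earlier results of these data known. All 10 were found among the 34866 genes of the table, and all 10 passed the filter on low values. RNA was sequenced from otic vesicles, the epithelial sacs that form the inner ear, taken at embryonic day 11.5 from mice of strain C57/BL6. The series holds 2 libraries of Meis2 mutants (KO 1 and KO 2) and 2 of wild-type embryos (WT 1 and WT 2), with no treatment in either group. The labels do not describe the Meis2 allele, the tissue in which it acts or how many embryos were pooled, so each p-value reflects only how far single libraries lie apart, and part of that may be technical. Levels are in TPM, a unit of transcript abundance that accounts for transcript length and so allows genes to be set side by side, but keeps no record of sequencing depth.

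p53 is a DNA-binding protein that is made continuously and destroyed almost as fast, because the ubiquitin ligase encoded by its own target Mdm2 marks it for degradation. DNA damage, ribosome defects or other stress stabilise the protein, and its targets then halt the cell cycle, repair DNA or start mitochondrial cell death. In mouse embryos loss of Mdm2 is lethal unless p53 is also lost, and excess p53 activity disturbs ear and craniofacial development, and the RNAs of its targets are a common readout of its activity.

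The p53 protein binds a pair of copies of a 10-base motif, the p53 consensus decamer. Of the 10 genes, 8 had promoter sequence in the RefSeq table (GRCm38.p6), which runs from 250 bases before to 50 bases after each annotated start. The consensus decamer reads the same on both strands, and only exact matches to it were counted. It occurred in 4 of these 8 genes, Cdkn1a, Mdm2, Ccng1 and Bax, against 9.6% of the 27025 genes with a promoter in that table. Among other known p53 targets it occurred in 8 of 26 genes. The matches are shown because the decamer is the feature that p53 recognises, and a match is a description of the letters, not evidence of binding in these cells. The 250 bases upstream of the more distal Cdkn1a start (chr17:29090729-29090978, plus strand) held a pair of exact matches within 13 bases of each other, an arrangement found in 0.07% of all windows. Capitals mark the exact matches in each sequence, written 5′ to 3′ on the strand of the gene. Near matches stay in lower case, among them the 10 bases directly after the second Cdkn1a decamer. Which of these stretches p53 binds was not tested.
Cdkn1a: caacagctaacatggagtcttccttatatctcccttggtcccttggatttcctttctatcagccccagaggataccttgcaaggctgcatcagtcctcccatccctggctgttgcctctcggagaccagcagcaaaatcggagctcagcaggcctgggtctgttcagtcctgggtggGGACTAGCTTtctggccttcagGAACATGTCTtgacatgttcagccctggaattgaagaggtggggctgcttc
The window of the other Cdkn1a start (chr17:29093519-29093768) held none. For Mdm2 (chr10:117710925-117710954, minus strand), Ccng1 (chr11:40755452-40755481, minus strand) and Bax (chr7:45467080-45467109, minus strand) the decamer is given with 10 bases on either side.
Mdm2: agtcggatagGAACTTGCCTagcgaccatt
Ccng1: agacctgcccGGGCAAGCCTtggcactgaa
Bax: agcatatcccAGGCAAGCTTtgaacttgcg
Phlda3, Sesn2, Eda2r and the 3 windows of Bbc3 held no exact match. This says nothing of sites with mismatches in these windows, which were not searched for, or of sites elsewhere in these genes.

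The transcript of p53 itself, Trp53, was abundant, at 201 TPM in KO 1, 199 in KO 2, 208 in WT 1 and 203 in WT 2. It stood at the 94.9th percentile of the 14496 genes tested, those whose mean reached 1 TPM. KO and WT differed by -0.04 on the log2(TPM + 1) scale (SE 0.06; limma adjusted p = 1.00). The other p53 family genes were close to 0: Trp63, the epidermal member, was at 1.29 TPM in KO 1 and at most 0.221 TPM in the other 3 libraries, and Trp73 lay between 0.247 and 0.595 TPM.

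Transcript levels of the 10 targets differed widely in these vesicles. Bax was the highest, between 149 and 171 TPM, at the 93.4th percentile of all genes tested. Mdm2 followed between 39.5 and 48.0 TPM, and neither range overlapped with that of the next gene in order. Ccng1, Cdkn1a, Phlda3, Zmat3 and Bbc3 came next, with means over the 4 libraries of 23.6, 19.3, 15.8, 12.2 and 10.6 TPM, and the ranges of neighbours in this order overlapped. Genes further apart in it were separate in part: the Ccng1 range lay above those of Phlda3, Zmat3 and Bbc3, and the Cdkn1a range above those of Zmat3 and Bbc3. Sesn2, between 6.82 and 8.07 TPM, lay below Bbc3 in all 4 libraries. The lowest were Eda2r and Pmaip1, with means of 1.97 and 1.71 TPM and overlapping ranges, at the 9.86th and 8.06th percentiles. Spread between libraries also differed: the coefficient of variation over the 4 libraries was 26.0% for Cdkn1a, 24.5% for Eda2r and 24.2% for Phlda3, against 5.7% for Bax, 7.0% for Ccng1 and 7.5% for Sesn2.

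**Figure D1:**
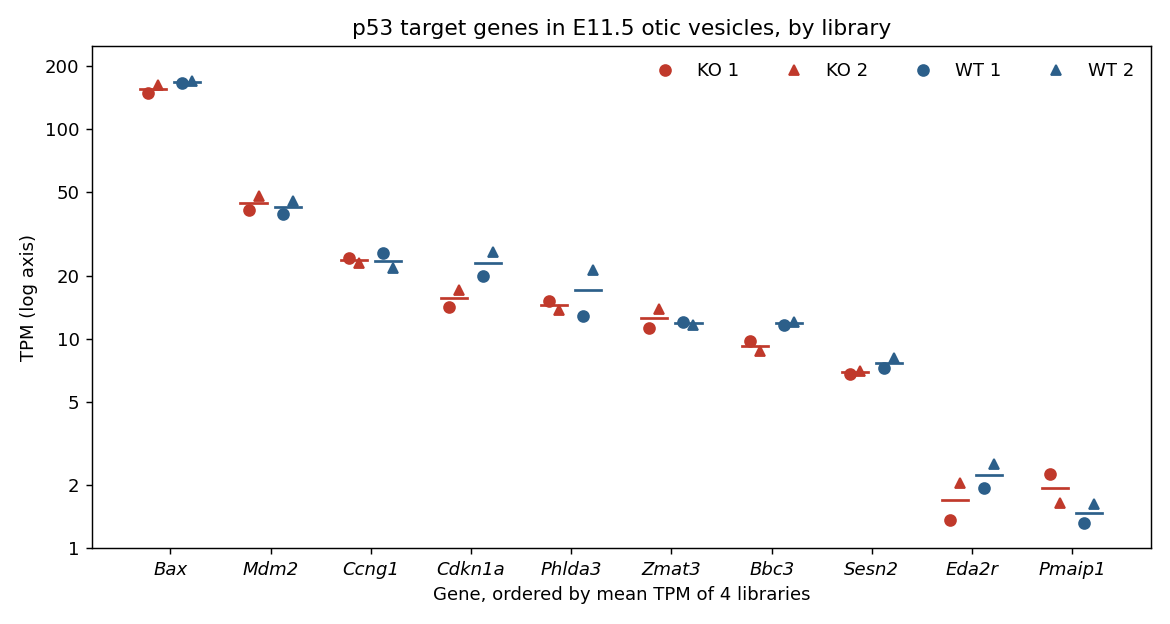
TPM (log axis) of the 10 p53 target genes in each library, with KO in red and WT in blue; circles are libraries numbered 1, triangles those numbered 2, and short lines are group means. Bax lies between 149 and 171 TPM and Pmaip1 and Eda2r between 1.32 and 2.53 TPM; for Cdkn1a and Bbc3 both KO libraries lie below both WT libraries.

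Whether loss of Meis2 changed p53 target levels was asked with limma on log2(TPM + 1) over all 14496 genes. None of the 10 targets passed a Benjamini-Hochberg adjusted p of 0.05, beside 0% of all genes tested (0 of 14496), and each had an adjusted p of 1.00. At an unadjusted limma p below 0.05 there were 2 of the 10, Cdkn1a and Bbc3, both lower in KO, beside 3.50% of all genes in either direction and 1.41% lower in KO. With 2 libraries a side, the smallest two-sided p of an exact permutation test is 0.333. The targets were lower in KO in 6 of 10, beside 38.4% of all genes, and their median log2 difference was -0.11, beside 0.03 for all genes tested. KO and WT did not overlap for 5 of the 10, beside 29.8% of all genes. KO lay wholly below WT for 4 (Cdkn1a, Bbc3, Bax and Sesn2), beside 10.5% of all genes, and wholly above for 1 (Pmaip1), beside 19.2%. These counts describe the list and carry no test, since the 10 genes share the same 4 libraries.

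Among the genes that act on the cell cycle, Cdkn1a (ENSMUSG00000023067.13, chromosome 17, 29090976 to 29100727, GRCm38) encodes p21, the cyclin-dependent kinase inhibitor that carries out p53's arrest in the first gap phase. Cdkn1a was at 14.2 TPM in KO 1 and 17.02 TPM in KO 2, against 20.03 TPM in WT 1 and 25.9 TPM in WT 2. The groups did not overlap, and the WT libraries lay further apart than the KO libraries. The means were 15.6 ± 2.01 TPM in KO and 23.0 ± 4.14 TPM in WT (SD, n = 2 each), a ratio of 0.679. The log2 difference was -0.52 (SE 0.17; unadjusted 95% interval -0.97 to -0.08; limma adjusted p = 1.00), and 2.08% of all genes tested had a difference as low or lower. It was -0.35 without WT 2, -0.70 without WT 1, -0.40 without KO 1 and -0.65 without KO 2; since the groups did not overlap, only the size and not the sign could differ between these fits.

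Ccng1 (ENSMUSG00000020326.7, chromosome 11, 40748552 to 40755311) encodes cyclin G1, which recruits a phosphatase to Mdm2. It was at 24.3 TPM in KO 1 and 23.0 TPM in KO 2, against 25.5 TPM in WT 1 and 21.7 TPM in WT 2. Both KO values lay between the WT values. Its log2 difference was 0.01 (SE 0.11; unadjusted 95% interval -0.30 to 0.31), and its sign turned with scaling, to -0.027 with median-of-ratios scaling and -0.045 with quantile normalization.

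The targets of the mitochondrial death pathway lay in both directions. Bbc3 (ENSMUSG00000002083.13, chromosome 7, 16308393 to 16318205) encodes PUMA, a BH3-only protein that neutralises the survival proteins of the BCL2 family. It was at 9.71 TPM in KO 1 and 8.75 TPM in KO 2, against 11.7 TPM in WT 1 and 12.1 TPM in WT 2. The groups did not overlap, and each was narrow next to the gap between them. The log2 difference was -0.33 (SE 0.12; unadjusted 95% interval -0.65 to -0.02; limma adjusted p = 1.00), and it lay between -0.40 and -0.27 when any 1 library was left out.

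Bax (ENSMUSG00000003873.11, chromosome 7, 45461697 to 45466898) encodes the protein that forms pores in the outer mitochondrial membrane. It was at 149 TPM in KO 1 and 163 TPM in KO 2, against 166 TPM in WT 1 and 171 TPM in WT 2. KO 2 lay nearer to WT 1 than to KO 1. The log2 difference was -0.11 (SE 0.08), and -0.04 without KO 1. Bax overlaps the predicted coding gene Gm45808 on the same strand, which averaged 0.291 TPM over the 4 libraries. Sesn2 overlaps Gm12981 on the same strand over 6089 bases, and Cdkn1a overlaps AC167363.2 on the opposite strand over 1046 bases. Neither Gm12981 nor AC167363.2 had values in these data, and the effect on Sesn2 and Cdkn1a levels was not tested.

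Pmaip1 (ENSMUSG00000024521.7, chromosome 18) encodes NOXA, a BH3-only protein that binds the survival protein Mcl1. It was at 2.25 TPM in KO 1 and 1.64 TPM in KO 2, against 1.32 TPM in WT 1 and 1.62 TPM in WT 2. KO 2 and WT 2 were nearly equal, and the separation of the groups rested on KO 1 and WT 1. This came to a log2 difference of 0.25 (SE 0.24), and 0.10 without KO 1.

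Of the targets at the cell surface or in signalling, Eda2r (ENSMUSG00000034457.10, chromosome X, 97333840 to 97377216) encodes a receptor for ectodysplasin A2. It was at 1.36 TPM in KO 1 and 2.05 TPM in KO 2, against 1.93 TPM in WT 1 and 2.53 TPM in WT 2, so that the groups overlapped. Its difference was -0.26 on the log2 scale (SE 0.25), and -0.08 without KO 1. Phlda3 (ENSMUSG00000041801.5, chromosome 1, 135766119 to 135769136) encodes a small pleckstrin homology domain protein that competes with the kinase Akt for membrane lipids. It was at 15.1 TPM in KO 1 and 13.7 TPM in KO 2, against 12.9 TPM in WT 1 and 21.4 TPM in WT 2. WT 2 stood above the other 3 libraries, which lay close together. The log2 difference was -0.19 (SE 0.25), and 0.15 without WT 2.

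The remaining targets feed back on p53 or limit stress. Mdm2 (ENSMUSG00000020184.15, chromosome 10, 117688875 to 117710758) was at 41.3 TPM in KO 1 and 48.0 TPM in KO 2, against 39.5 TPM in WT 1 and 45.5 TPM in WT 2. The groups overlapped, and the libraries numbered 2 were the higher in both. Mdm2 differed by 0.07 on the log2 scale (SE 0.12; unadjusted 95% interval -0.25 to 0.38). Sesn2 (ENSMUSG00000028893.8, chromosome 4, 132492032 to 132510501), which encodes sestrin 2, a leucine sensor that restrains the growth kinase mTORC1 and also responds to the stress factor ATF4, was at 6.82 TPM in KO 1 and 7.05 TPM in KO 2, against 7.22 TPM in WT 1 and 8.07 TPM in WT 2. The gap between KO 2 and WT 1 was smaller than the distance between the WT libraries, and the log2 difference was -0.12 (SE 0.13). Zmat3 (ENSMUSG00000027663.12, chromosome 3, 32334792 to 32366014), which encodes a zinc finger RNA-binding protein, was at 11.3 TPM in KO 1 and 13.9 TPM in KO 2, against 12.0 TPM in WT 1 and 11.6 TPM in WT 2. The KO values enclosed the WT values, and the log2 difference was 0.08 (SE 0.14).

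**Figure D2:**
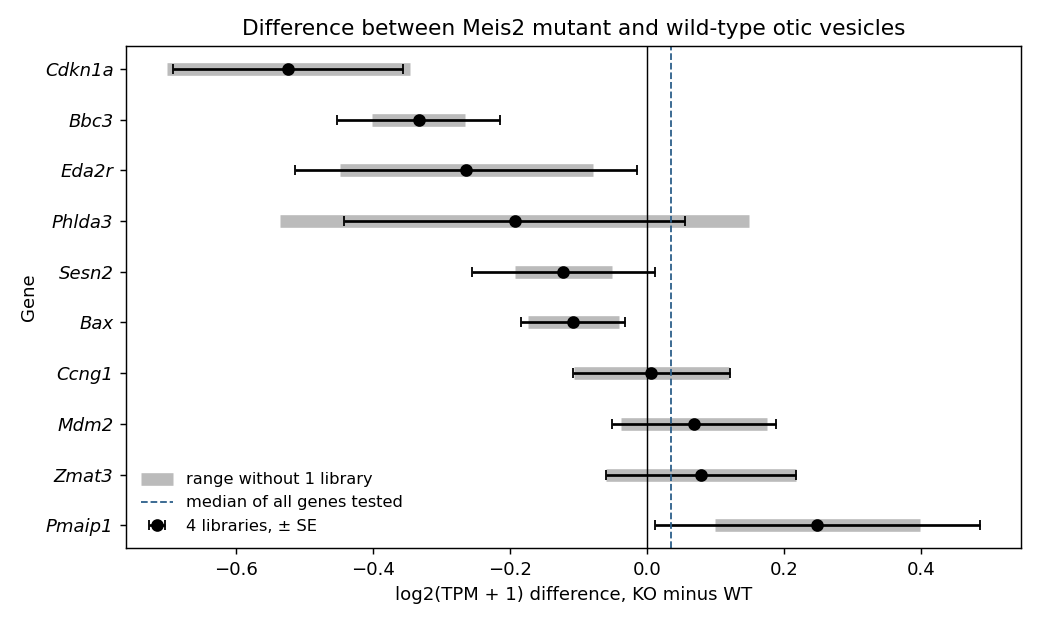
Log2(TPM + 1) difference, KO minus WT, for each p53 target gene: points with SE bars from limma on 4 libraries, grey bands spanning the 4 fits that leave out 1 library. Cdkn1a (-0.52) and Bbc3 (-0.33) lie lowest, and the bands of Phlda3, Ccng1, Mdm2 and Zmat3 cross 0.

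Close relatives showed which family members supplied most of the RNA at this stage. Of the summed TPM of Cdkn1a and the genes of the related inhibitors p27 and p57, Cdkn1b and Cdkn1c, Cdkn1a held 1.99% in KO 1 and 2.75% in KO 2, against 3.05% in WT 1 and 3.75% in WT 2. Cdkn1c was the most abundant of these, at 588 ± 66.0 TPM in KO and 592 ± 27.7 TPM in WT (SD, n = 2 each). Sesn2 was the least abundant sestrin, with 9.16% and 11.2% of the sestrin total in KO and 10.5% and 12.6% in WT. Bax was the most abundant of the pore formers, with 65.6% and 71.4% of the sum of Bax, Bak1 and Bok in KO and 69.3% and 70.2% in WT. Mdm2 and its partner Mdm4, which blocks p53 without strong ligase activity of its own, were present at similar levels: Mdm2 held 55.6% and 51.0% of their sum in KO and 55.7% and 53.7% in WT. Ccng1 was below Ccng2, with 34.1% and 32.1% of their sum in KO and 34.1% and 31.9% in WT. Phlda3 was below Phlda1, a gene of the same family, in every library, since Phlda1 lay between 45.6 and 73.8 TPM.

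The wider pathway gave 0 calls in either direction. Of 34 other p53 targets, 32 were in the table and 28 were tested: 16 were higher and 12 lower in KO, 0 passed the adjusted threshold, 0 had an unadjusted p below 0.05, and the median log2 difference was 0.03, the same to 2 decimals as that of all genes. These counts leave out Ddit4, which responds to p53 as well as to ATF4 and was placed in the ATF4 stress list below. Its log2 difference was -0.27 (SE 0.06), with an unadjusted limma p below 0.05. The genes of the p53 target list with the smallest p were Plk2, a polo-like kinase (59.9 ± 2.05 TPM in KO and 52.96 ± 3.45 TPM in WT), Dcxr, a sugar reductase (10.4 ± 0.361 and 12.5 ± 1.71 TPM in KO and WT), and Apaf1, the scaffold of the apoptosome (23.5 ± 1.22 TPM in KO and 21.5 ± 0.390 TPM in WT; SD, n = 2 each). The stress target Gadd45a, named after its values were seen, was at 19.6 TPM in KO 1 and 36.7 TPM in KO 2, against 25.1 TPM in WT 1 and 36.1 TPM in WT 2, a wider spread within each genotype than between them. Among p53 and its regulators 16 of 20 tested genes were higher and 4 lower (median 0.08), beside 38.4% of all genes lower in KO. The smallest p there belonged to Trp53bp2 (-0.11, SE 0.08), the checkpoint kinase gene Chek1 (0.11, SE 0.09) and the acetyltransferase gene Kat5 (0.10, SE 0.08).

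Lists of cell cycle, BCL2 pathway and ATF4 stress genes were set beside all genes tested, of which 38.4% were lower in KO. The lists of first gap phase and BCL2 pathway genes also hold genes that act in parallel to p21 and PUMA, such as Cdkn1b and Bik. They therefore do not measure the output of p21 or PUMA. Of 20 cell cycle genes that p53 lowers through p21 and the DREAM complex, 14 were higher and 6 lower in KO, with a median of 0.03 and log2 differences between -0.08 and 0.11. Their first genes by p were Mcm3 (0.09, SE 0.07), a subunit of the replicative helicase, the mitotic kinase gene Cdk1 (-0.08, SE 0.07) and the transcription factor gene Foxm1 (0.11, SE 0.10). Of 14 tested genes of cyclin-dependent kinase inhibitors and of the first gap phase, 9 were higher and 5 lower (median 0.02). They were led by Pcna (-0.15, SE 0.09), Cdk2 (0.08, SE 0.07) and Ccnd2 (-0.08, SE 0.07). Of 13 other tested genes of the BCL2 pathway 7 were higher and 6 lower (median 0.0052), led by Bik (0.30, SE 0.20), Bcl2l11 (-0.10, SE 0.10) and Bmf (-0.07, SE 0.10). The ATF4 stress list holds Atf4 itself and genes of amino acid, unfolded protein and related stress. It was chosen by name, so not every gene need be a direct ATF4 target. Of its 13 tested genes 7 were higher and 6 lower (median 0.02, range -0.28 to 0.40). KO lay wholly below WT for 5 of the 13, beside 10.5% of all genes, and wholly above for 1, beside 19.2%. Ddit4, an inhibitor of mTORC1 that responds to p53 as well as to ATF4, was at 87.4 ± 0.629 TPM in KO and 106 ± 1.89 TPM in WT (SD, n = 2 each), and differed by -0.27 on the log2(TPM + 1) scale (SE 0.06; limma adjusted p = 1.00). Phgdh (-0.20, SE 0.07) and Psat1 (-0.10, SE 0.08), enzymes of serine synthesis, were the other genes of this list with the smallest p. In the 5 lists of regulators, cell cycle, BCL2 pathway and ATF4 stress genes 0 genes passed the adjusted threshold. At an unadjusted limma p below 0.05 there were 2 of 80 tested, beside 3.50% of all genes. These were Ddit4 and Phgdh, both among the 13 tested genes of the ATF4 stress list.

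**Figure D3:**
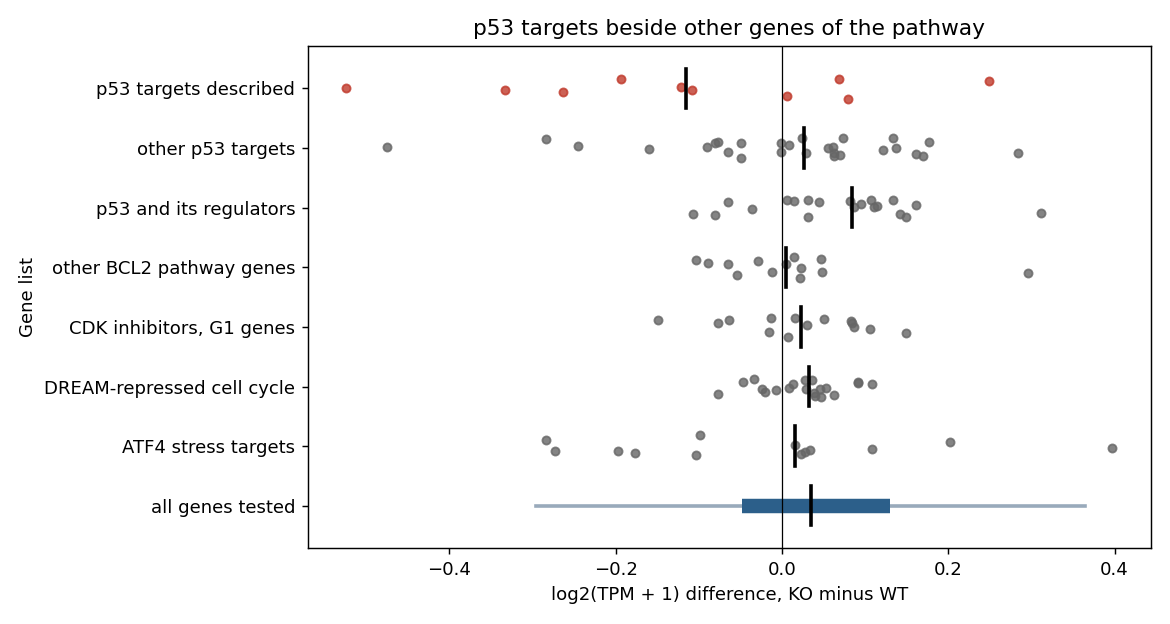
Log2(TPM + 1) difference, KO minus WT, of each tested gene in 7 lists, with black bars at list medians; the lowest row gives all 14496 genes as median, interquartile band and a line spanning the 5th to the 95th percentile (-0.30 to 0.36). The 10 described p53 targets have a median of -0.11, and the medians of the other 6 lists lie between 0.0052 and 0.08.

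The libraries also differed from each other within a genotype. WT 2 was the highest library for 6 of the 10 targets and KO 1 the lowest for 5. Relative to each gene's mean of 4 libraries, the median of the 10 targets was -0.09 in KO 1 and -0.03 in KO 2, against -0.01 in WT 1 and 0.10 in WT 2 on the log2(TPM + 1) scale. At an unadjusted limma p below 0.05 there were 0 of the 10 targets without WT 2, beside 2.33% of all genes, and 0 without KO 1, beside 5.06%. There was 1 without KO 2, beside 4.96%, and there were 2 without WT 1, beside 2.77%.

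Summed markers of the cell types in the dissection and of embryo sex also varied between libraries, and 0 genes of the 8 marker lists passed the adjusted limma threshold. Over all genes tested 38.4% were lower in KO. Markers of the labelled tissue were abundant: Oc90, an otoconial matrix gene, was at 582 ± 28.5 TPM in KO and 818 ± 133 TPM in WT, and Epcam at 184 ± 5.53 TPM in KO and 204 ± 8.43 TPM in WT (SD, n = 2 each). The sum of 14 otic epithelium markers, none at 0 and 11 of 14 lower in KO, was 1410 and 1521 TPM in KO against 1845 and 1700 TPM in WT. Of the 14, 9 lay wholly lower in KO, beside 10.5% of all genes. KO lay wholly above WT for 4 of 12 mesenchyme, 5 of 9 endothelial and 3 of 10 macrophage markers, beside 19.2% of all genes. The same held for 1 of 12 neuron and 1 of 11 erythroid markers. Outside the otic list, KO lay wholly below WT only for 1 of the 9 endothelial markers. The sum of 12 mesenchyme markers (Col3a1 and Col1a2 the most abundant, 12 of 12 higher in KO) was 1273 and 831 TPM in KO against 876 and 713 TPM in WT. The sum of 12 neuron markers (Tubb3 and Nefm, 10 of 12 higher) was 296 and 959 TPM in KO against 372 and 640 TPM in WT. The sum of 11 erythroid markers (Hbb-y and Hba-a2, 9 of 11 lower) was 13510 and 15368 TPM in KO against 10869 and 26019 TPM in WT, highest in WT 2 as were Cdkn1a, Phlda3, Eda2r, Bbc3, Bax and Sesn2. For 9 endothelial markers (Egfl7 and Pecam1, 8 of 9 higher) the sums were 308 and 249.8 TPM in KO and 247 and 274 TPM in WT. For 10 macrophage markers (C1qb and Fcer1g, 8 of 10 higher) they were 91.7 and 59.7 TPM in KO and 57.8 and 72.0 TPM in WT. For 10 epidermal markers (Wnt6 and the p53 target Perp, 3 of the 4 tested lower) they were 31.1 and 12.1 TPM in KO and 23.6 and 24.5 TPM in WT, with Krt14 and Krt77 at 0 in a library. The epidermal markers below the filter, Krt5, Krt14, Trp63, Krt17, Grhl3 and Krt77, went the other way, with higher means in KO. Krt5 was at 3.28 TPM in KO 1 and 0.112 TPM in KO 2, against 0.149 TPM in WT 1 and 0.0544 TPM in WT 2. The 4 Y-linked genes (Eif2s3y and Ddx3y) summed to 2.07 and 123 TPM in KO and 30.3 and 3.04 TPM in WT, highest in KO 2 and WT 1. They are present in male embryos and mark no cell type, so the share of RNA from males differed between the libraries of each genotype. The part of these differences in the levels of the 10 targets was not tested, and in bulk tissue fewer cells of a type and less RNA per cell cannot be told apart. Meis2 itself was at 73.2 and 76.6 TPM in KO against 79.0 and 88.7 TPM in WT. Its allele is not described, and a level over the whole gene cannot show a missing exon, so the labels are not checked by it.

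**Figure D4:**
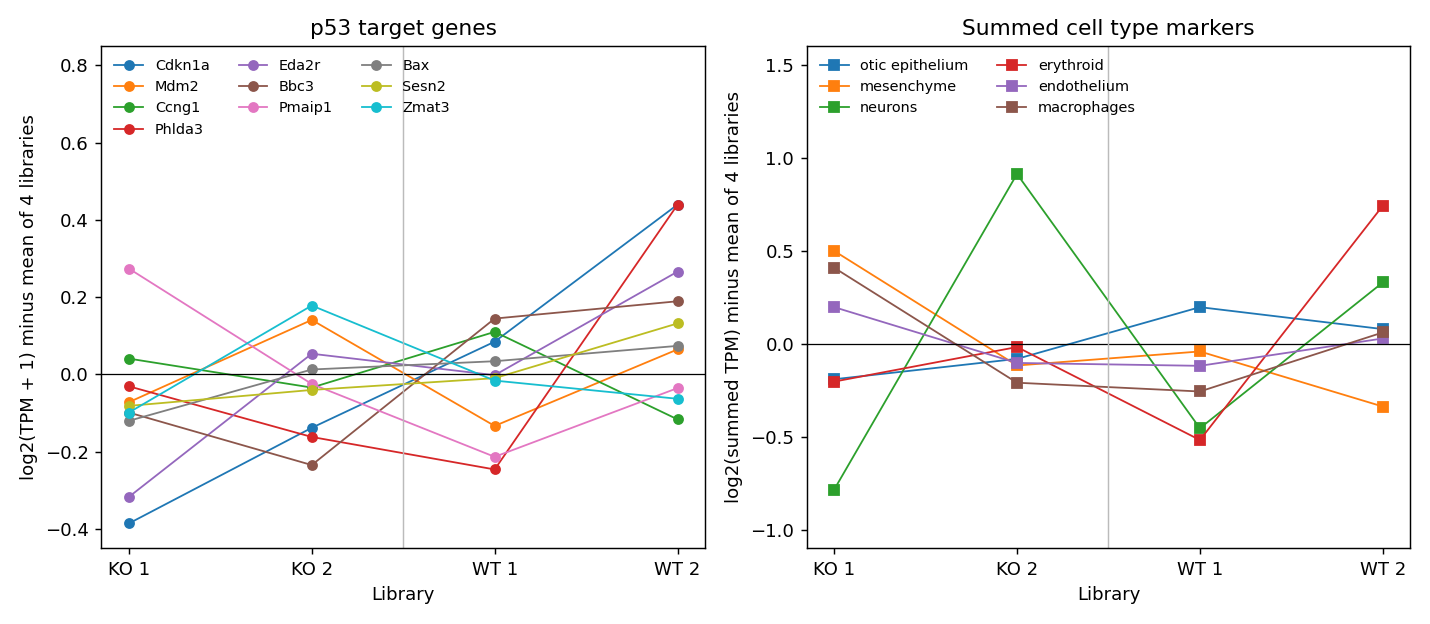
Left, log2(TPM + 1) of each p53 target minus its mean over the 4 libraries; right, log2 of the summed TPM of 6 cell type marker lists minus its mean, with lines joining the points of a gene or list. Cdkn1a is lowest in KO 1 (14.2 TPM) and highest in WT 2 (25.9 TPM); neuron markers are lowest in KO 1 (296 TPM) and highest in KO 2 (959 TPM), and erythroid markers highest in WT 2 (26019 TPM).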

How the data were processed

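Gene-level TPM of 4 otic vesicle libraries were analysed as the authors deposited them. Salmon 0.9.1 and the build GRCm38 are named in the submitters' processing notes; annotation release, gene summary step and depth are not given there. Each deposited library summed to 1000000 TPM. All nonzero values became whole millionths of a TPM when multiplied by 4 (KO 1, WT 1, WT 2) or by 3 (KO 2; tolerance 0.02), the form that means of 4 and 3 values would take; what was averaged is not stated.

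Gene IDs were named by number from GENCODE M21 (34652 of 34866), which also gave coordinates; Cdkn1a and Pmaip1 carried another version number there. For the 14496 genes whose mean reached 1 TPM, log2(TPM + 1) was fitted on genotype alone with limma 3.58.1 (R 4.3.3), moderating the variance along a mean-variance trend; p-values are two-sided and were adjusted over all these genes by Benjamini-Hochberg. Log2 differences are KO minus WT, and the pseudocount makes them too small for low genes. The fit was also run on simulated libraries with independent noise. These lacked the correlation between same-numbered libraries, so the run cannot show how the p-values behave with it. Promoter sequences are RefSeq's (GRCm38.p6). The target genes and the lists were chosen with earlier results of these data known. All 10 targets, Meis2, Trp53, the 3 genes of each pathway list with the smallest p and the 2 most abundant of each marker list are named; others were named after their values were seen. 1 gene of the BCL2 pathway list is not reported here. Relatives were chosen by gene family, after the data were seen. Alternatives were other pseudocounts, filters, scalings and variance moderation, a replicate block, leaving out each library and, added after the data were seen, protein-coding genes only.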

Additional observations from a re-analysis of the deposited data

How the results depend on the processing

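The count of targets called stayed at 0 under all 13 alternatives, and their median log2 difference lay between -0.16 and -0.06, lower than that of all genes (0.0008 to 0.04) in each. Over all genes 0 were called, except 2 without KO 1 and 10 without KO 2; leaving out a library gave 0 to 10. Cdkn1a, Bbc3, Bax, Sesn2 and Eda2r stayed lower and Pmaip1 higher under every alternative in which they were tested; where groups do not overlap, leaving out a library cannot turn the sign. With a mean of at least 5 TPM Eda2r and Pmaip1 were not tested. Ccng1 turned to -0.027 with median-of-ratios scaling and -0.045 with quantile normalization. With 1 library left out Ccng1 ranged from -0.11 to 0.12, Mdm2 from -0.037 to 0.18, Phlda3 from -0.54 to 0.15 and Zmat3 from -0.059 to 0.22; the cause was not tested. A genotype left with 1 library is assumed to vary like the other. Libraries share only a number: the deviations of same-numbered libraries correlated at 0.423 over 14496 genes, and with the replicate block 1178 genes had an unadjusted limma p below 0.05, against 507 without it, with 0 called in both, and Cdkn1a had a limma adjusted p of 0.507 (0.507 to 1.00 over its alternatives). The depth of the libraries is unknown, which limits what can be said of Eda2r and Pmaip1, near 2 TPM.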
